A study of Danio rerio with 16 samples.

Results

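Whole zebrafish larvae exposed to 10 µM PCB153 were set against larvae exposed to 1 µM of the same compound, a comparison between the highest and the middle concentration in which the solvent control takes no part. Each group held 4 libraries. All larvae were 5 days old, with exposure between hour 4 and hour 120 of development, and were sequenced as whole animals after removal of ribosomal RNA. The rest of the 16 libraries are 4 of larvae at 0.1 µM PCB153 and 4 of larvae given the solvent alone (0.1% DMSO). They enter below as levels only. The labels call the libraries of a group biological replicates but do not state the strain, the clutch or the number of larvae pooled, so p-values measure the spread between these samples. A gene was included when it had at least 1 CPM (count per 1e+06 gene counts) in 4 or more of the 8 libraries, which 20288 of 32105 genes did. This filter used the library totals as counted, whereas the CPM values printed below use scaled library sizes.

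PCB153 is a chlorinated biphenyl of the non-dioxin-like kind. It is fat-soluble, breaks down slowly and collects in animal tissue. In mammals such compounds are known to act through the nuclear receptors that induce drug-metabolising cytochrome P450 enzymes rather than through the aryl hydrocarbon receptor. The larva at this age swims and sees, has a working liver and pancreas, and is at the turn from yolk to feeding. RNA of a whole larva mixes all its tissues, and a lower level from fewer cells of a type cannot be told apart from one due to less RNA in each cell.

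Of the 20288 genes tested, 1298 (6.40%) differed between 10 µM and 1 µM at an adjusted p under 0.05 in edgeR's quasi-likelihood test with Benjamini-Hochberg adjustment, the test behind every adjusted p given here. At 10 µM, 625 genes rose (3.08%) and 673 fell (3.32%), the shares beside which the counts of each list below stand. All lists were chosen with earlier results of these data known or written after values were seen. Without adjustment, 4539 genes had a p under 0.05 in that test. The changes were mostly small, with a median of 0.38 log2 units among the genes that rose and -0.36 among those that fell. At least 2-fold changes were seen for 30 genes that rose and 38 that fell. In 1195 of the 1298 genes the 4 libraries at 10 µM all lay on 1 side of the 4 at 1 µM, and such a separation was found in 14.1% of all genes tested (7.69% above and 6.44% below). Among those that rose were the vitamin D inactivation gene CYP24A1, the IGFBP1 pair and genes of amino acid breakdown, photoreceptors, immediate early signalling and lysosomes. Genes of vitamin D activation, ribosome assembly and collagens were among those that fell.

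**Figure D1:**
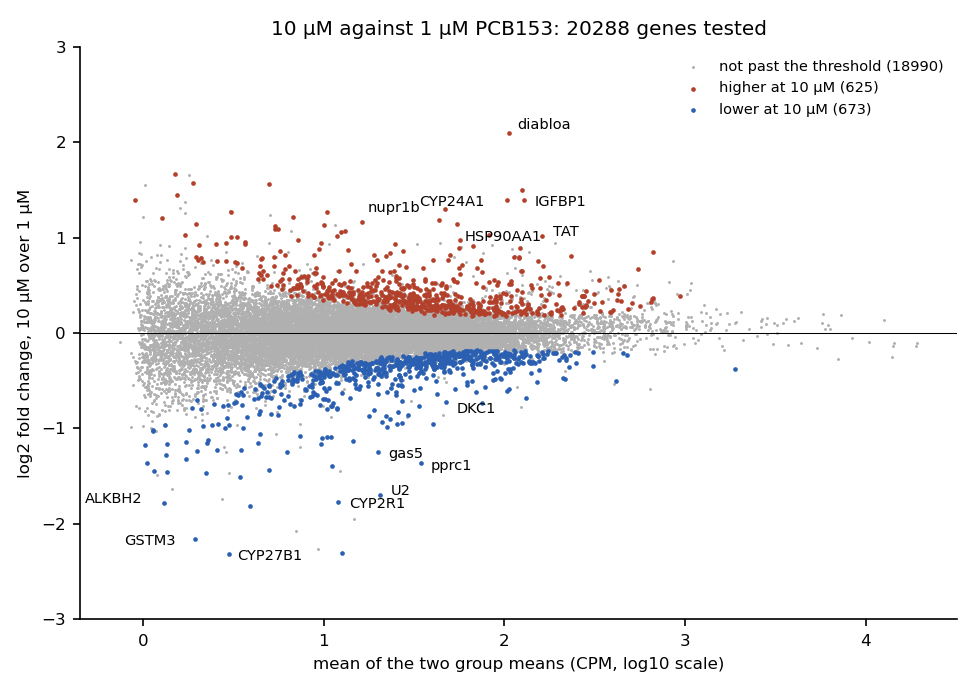
Log2 fold change of 10 µM over 1 µM PCB153 (vertical axis) against the mean level of each of 20288 genes (horizontal axis, CPM on a log10 scale), with the 625 genes that rose in red, the 673 that fell in blue and the others in grey. Most coloured points lie within 1 log2 unit of 0, and CYP24A1, TAT and diabloa stand among the abundant genes with the largest rises.

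Gene counts summed to 11984848 to 15110922 per library at 10 µM and to 8069225 to 15531744 at 1 µM, where replicate 1 was the shallowest. Principal components of the 8 libraries separated the doses along the first axis, which held 31.1% of the variance, and set 1 µM replicate 1 apart along the next, with 19.7%. Reads outside annotated genes, those that the counting program placed in no gene, made up 32.2 ± 0.746% of uniquely aligned reads at 10 µM and 37.3 ± 2.53% at 1 µM (SD, n = 4 each). The groups did not overlap in this share (31.7% to 33.3% at 10 µM, 35.1% to 40.4% at 1 µM). Its exact two-sided permutation p was 0.0286, the smallest that 70 splits allow, and 0.0857 after adjustment over 3 library measures. A fit that included this share as a covariate called 47 genes, and 35 of the 1298 kept their call and sign in it. Dose and share cannot be told apart with these libraries. Leaving out 1 library moved the count to 620 without 1 µM replicate 2, 788 without 1 µM replicate 4, 634 without 10 µM replicate 1, 599 without 10 µM replicate 2 and 768 without 10 µM replicate 4.

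**Figure D2:**
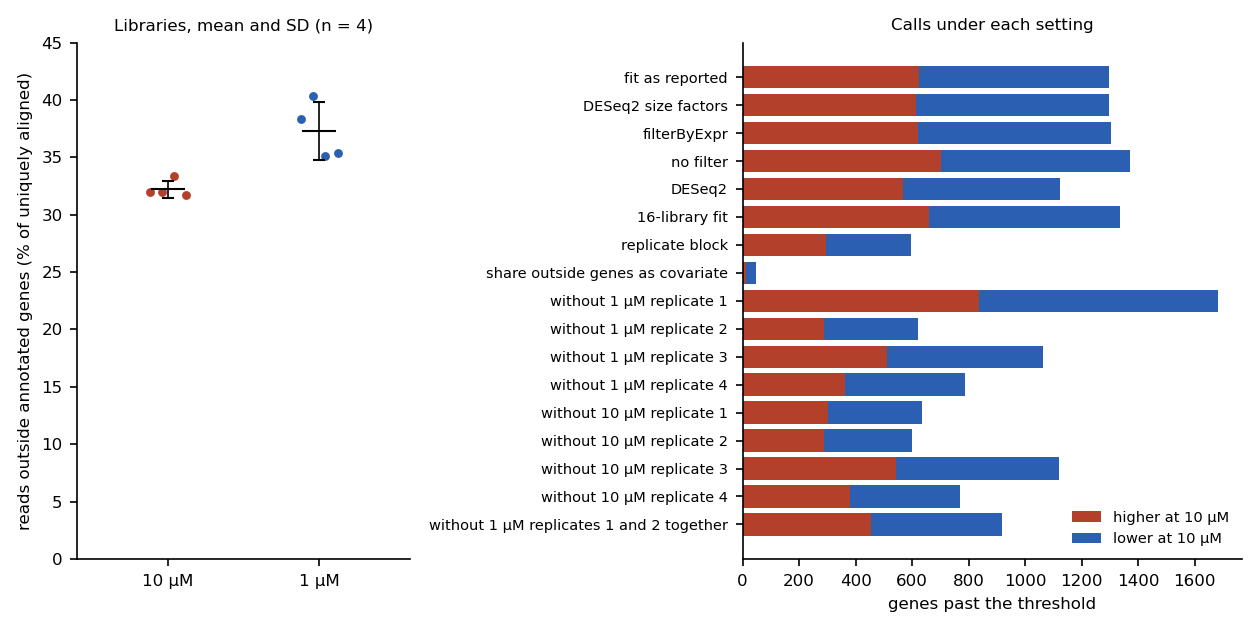
Left, reads outside annotated genes as a percentage of uniquely aligned reads in each library (points), with mean and SD of 4 libraries. Right, the number of genes past the threshold in the reported fit (1298) and in each alternative, higher at 10 µM in red and lower in blue. The 4 libraries at 10 µM lie at 31.7% to 33.3%, below all 4 at 1 µM, and the count is smallest, 47, with that share as a covariate.

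Vitamin D is made active in animals by hydroxylation steps in liver and kidney, and is switched off by a further hydroxylase that the active hormone itself induces. The gene of that inactivating enzyme, CYP24A1 (ENSDARG00000103277), had 134, 163, 118 and 186 CPM at 10 µM and 68.5, 51.3, 53.2 and 54.7 CPM at 1 µM. All libraries at 10 µM lay above all those at 1 µM, and the gene rose by 1.40 ± 0.16 log2 units (SE, adjusted p = 0.00365). CYP2R1 (ENSDARG00000056587), a hydroxylase that makes the circulating form of the vitamin, had 6.79, 5.56, 6.11 and 3.75 CPM at 10 µM and 12.1, 21.4, 22.1 and 18.9 CPM at 1 µM. It fell by 1.77 log2 units (SE 0.21, adjusted p = 0.0015), again with no overlap. The rule for naming the largest rises and falls required this separation of both genes. CYP27B1 (ENSDARG00000045015), which makes the active hormone, had 1.28, 0.513, 1.47 and 0.843 CPM at 10 µM and 1.64, 9.17, 4.21 and 4.82 CPM at 1 µM. Replicate 1 at 1 µM was close to the 10 µM range and the other 1 µM libraries were clearly higher. The fall of CYP27B1, -2.31 ± 0.54 (adjusted p = 0.0478), was lost when any library other than 1 µM replicates 1 and 2 was left out (adjusted p up to 0.13).

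The other genes of vitamin D handling did not pass the threshold. The list was written after values were seen and holds 16 tested genes, of which 1 rose and 2 fell, the 3 just described. The vitamin D receptor genes VDR ENSDARG00000070721 and VDR ENSDARG00000099483 differed by 0.16 ± 0.08 and -0.04 ± 0.07 log2 units. SLC34A2 (ENSDARG00000012903), named after its values were seen, encodes a carrier that takes up phosphate, the mineral that vitamin D handles together with calcium. It had 29.0, 30.1, 25.9 and 26.3 CPM at 10 µM and 47.6, 54.9, 57.2 and 52.8 CPM at 1 µM. The groups were far apart, and the gene fell by 0.95 log2 units (SE 0.07, adjusted p = 1.57e-06). Its call held in the fit with the outside-gene share as covariate (adjusted p = 0.00124). No gene of the vitamin D list passed in that fit, so the calls of CYP24A1, CYP2R1 and CYP27B1 were lost.

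Breakdown of aromatic amino acids runs from phenylalanine through tyrosine to small acids, mostly in the liver. Of 10 tested genes of this route, a list written after values were seen, 4 rose and none fell, and the median change was 0.28 log2 units against 0.00 over all genes tested. TAT (ENSDARG00000069630), tyrosine aminotransferase, which also answers to glucocorticoids in mammals, had 224, 228, 182 and 239 CPM at 10 µM and 113, 95.5, 113 and 106 CPM at 1 µM. Its lowest library at 10 µM was well above its highest at 1 µM, and it rose by 1.02 ± 0.08 log2 units (adjusted p = 5.82e-06). HGD, a later step that opens the aromatic ring, rose by 0.49 ± 0.08 log2 units (adjusted p = 0.00151). HPD, the step between TAT and HGD, rose by 0.42 ± 0.10 log2 units (adjusted p = 0.0364), which did not pass without 1 µM replicate 1, 2 or 4 or 10 µM replicate 1, 2 or 4 (adjusted p up to 0.0839). Of the gluconeogenesis list, which shares TAT with this route, 4 of 23 tested genes rose and 1 fell. PCK1, which commits carbon to glucose synthesis, had 1109, 1137, 1021 and 1003 CPM at 10 µM and 813, 637, 909 and 886 CPM at 1 µM. It rose by 0.39 ± 0.09 log2 units (adjusted p = 0.0251), without overlap, and the change was -0.01 in the fit with the outside-gene share (adjusted p = 0.988). Its call was also lost without 1 µM replicate 1 or 10 µM replicate 1 or 2 (adjusted p up to 0.0814), and the list's count of rising genes was 2 without 1 µM replicate 2 or 4 and 1 without 10 µM replicate 1 or 2.

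Insulin-like growth factors are held in the blood by binding proteins, and IGFBP1 in particular is known as a gene of fasting, low oxygen and stress. Of 31 tested genes of insulin and insulin-like growth factor signalling, 5 rose (16.1%, beside 3.08% of all genes) and none fell. The list's median change was 0.00 log2 units. IGFBP1 (ENSDARG00000099351) had 186, 206, 152 and 201 CPM at 10 µM and 108, 46.9, 73.4 and 56.4 CPM at 1 µM, and rose by 1.40 ± 0.27 log2 units (adjusted p = 0.0334). Its duplicate igfbp1b had 64.0, 77.3, 43.1 and 83.1 CPM at 10 µM and 30.7, 20.7, 32.7 and 24.5 CPM at 1 µM, and rose by 1.301 ± 0.25 log2 units (adjusted p = 0.0323). Neither gene overlapped between the groups, which the rule for naming the largest rises required. The libraries of each group were widely spread. The IGFBP1 call was lost on leaving out any library other than 1 µM replicate 1 and 10 µM replicate 3, and the igfbp1b call on leaving out any other than 10 µM replicate 3 (adjusted p up to 0.0972 and 0.0919). The other binding protein genes tested, of the IGFBP2, IGFBP3, IGFBP5, IGFBP6 and IGFBP7 kinds, were not called. They ranged from -0.18 to 0.20 log2 units, and only IGFBP7 was positive. The insulin receptor substrate genes IRS2 ENSDARG00000037099 and IRS2 ENSDARG00000075282 rose by 0.65 ± 0.11 and 0.52 ± 0.09 log2 units (adjusted p = 0.00876 and 0.00308). The fifth rising gene was FOXO4, a transcription factor that insulin signalling shuts out of the nucleus (0.35 ± 0.08, adjusted p = 0.0128, and 0.0503 without 10 µM replicate 2). The count of rising genes was 3 without 1 µM replicate 2, 3 or 4 or 10 µM replicate 1 or 4, and 2 without 10 µM replicate 2. No member of the list passed with the outside-gene share as covariate.

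Among 18 tested genes of the glucocorticoid response, 3 rose and none fell. They were tsc22d3, an anti-inflammatory target of the receptor (0.48 ± 0.08, adjusted p = 0.00276), the kinase gene sgk1 (0.52 ± 0.11, adjusted p = 0.0212) and FKBP4, a chaperone of the receptor (0.25 ± 0.06, adjusted p = 0.0278). The sgk1 call was lost without 10 µM replicate 4 (adjusted p = 0.0522) and the FKBP4 call without 6 of the 8 libraries (adjusted p up to 0.0974), and the list's count was 8 without 1 µM replicate 1 and 1 without 10 µM replicate 4. FKBP5, another known target, had 430, 521, 439 and 415 CPM at 10 µM and 503, 370, 434 and 437 CPM at 1 µM. These ranges overlapped, with a difference of 0.04 ± 0.09 log2 units. KLF9 differed by 0.19 ± 0.10 log2 units (adjusted p = 0.307). Thyroid hormone handling held 12 tested genes, of which 3 rose. The deiodinase gene dio3b, whose enzyme inactivates thyroid hormone, had 98.9, 92.3, 72.5 and 88.1 CPM at 10 µM and 44.97, 38.99, 57.78 and 44.04 CPM at 1 µM. Every library at 10 µM was above those at 1 µM, and the gene rose by 0.91 ± 0.13 log2 units (adjusted p = 0.00521). TG, the protein from which the hormone is made, rose by 0.82 ± 0.14 (adjusted p = 0.00738). Of 24 tested pituitary and hypothalamic hormone genes 3 rose, TRH by 0.70 ± 0.12 (adjusted p = 0.0021), CRH by 0.50 ± 0.12 (adjusted p = 0.0212, lost without 1 µM replicate 2 or 3 or 10 µM replicate 4, up to 0.0703) and adcyap1b by 0.33 ± 0.05 log2 units (adjusted p = 0.00188). No member of these 3 lists passed with the outside-gene share as covariate.

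**Figure D3:**
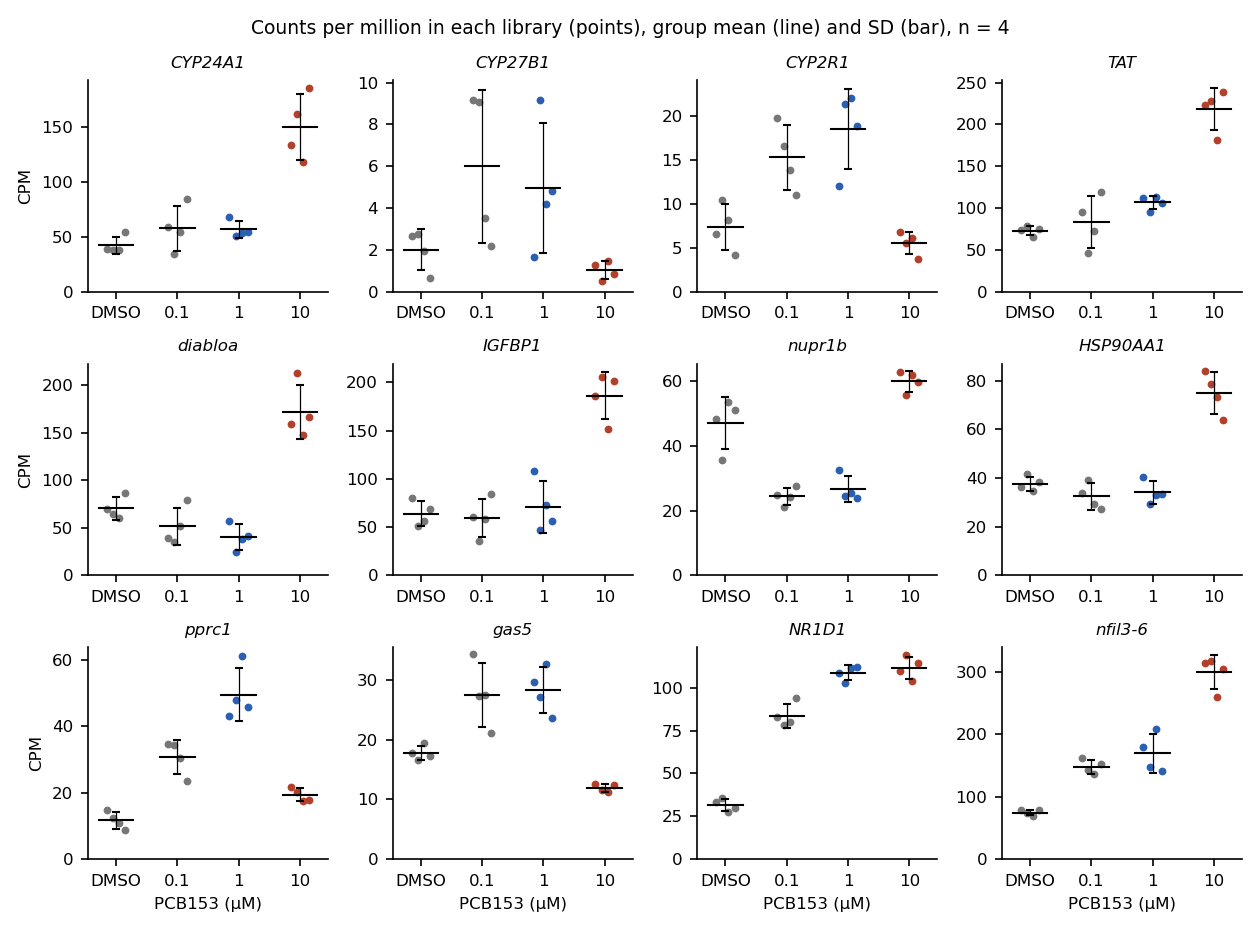
CPM in each library (points) of 12 genes in larvae given DMSO or 0.1, 1 or 10 µM PCB153 (horizontal axis), with the group mean (line) and SD (bar), n = 4 per group. CYP24A1, TAT, IGFBP1, HSP90AA1 and diabloa are highest at 10 µM, CYP2R1 and pprc1 are highest at 1 µM, and NR1D1 is at a like level at 1 and 10 µM (109 and 112 CPM).

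In the retina, rods and cones detect light with opsins, pass the signal on through a G protein and a phosphodiesterase, and reset it with kinases, arrestins and calcium-binding activators of guanylate cyclase. Of 71 tested phototransduction genes, 19 rose and 1 fell, that is 26.8% and 1.41% of the list beside 3.08% and 3.32% of all genes. The list's median change was 0.18 log2 units. GUCA1A ENSDARG00000100747, a cyclase activator, had 8.27, 7.36, 7.08 and 6.74 CPM at 10 µM and 3.15, 2.71, 3.98 and 3.52 CPM at 1 µM. It was higher in every library at 10 µM, which the rule for naming the largest rises required, and rose by 1.12 ± 0.14 log2 units (adjusted p = 0.000237). The related guca1d and guca1c rose by 1.09 ± 0.16 and 0.50 ± 0.06 log2 units (adjusted p = 0.000707 and 0.000235). The gene that fell, GUCA1A ENSDARG00000101567, carries the same symbol. It had 12.1 to 17.7 CPM at 10 µM and 18.3 to 20.9 CPM at 1 µM (-0.39 ± 0.10, adjusted p = 0.035), and its call was lost without 1 µM replicate 2, 3 or 4 or 10 µM replicate 2, 3 or 4 (adjusted p up to 0.105).

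Genes used by cones were among those that rose. GRK7 ENSDARG00000020602, the kinase of cone opsins, had 207, 193, 186 and 171 CPM at 10 µM and 119, 114, 136 and 132 CPM at 1 µM, and rose by 0.58 ± 0.07 log2 units (adjusted p = 0.000143). The cone arrestin genes ARR3 ENSDARG00000098475 and ARR3 ENSDARG00000056511 rose by 0.50 ± 0.06 and 0.34 ± 0.07 log2 units (adjusted p = 0.00014 and 0.0113). PDE6C, the cone phosphodiesterase, rose by 0.38 ± 0.07 (adjusted p = 0.0042) and the red cone opsin gene opn1lw1 by 1.00 ± 0.20 log2 units (adjusted p = 0.00728) at 3.33 to 4.56 CPM at 10 µM against 1.44 to 2.52 CPM at 1 µM. ARR3 ENSDARG00000056511, guca1d, the GUCA1A gene that fell, PDE6C and opn1lw1 were named after their values were seen. The summed level of the whole list ranged from 8714 to 9325 CPM at 10 µM and from 7526 to 8178 CPM at 1 µM. In the fit with the outside-gene share no member passed the threshold, while the list's median was 0.20 log2 units.

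**Figure D4:**
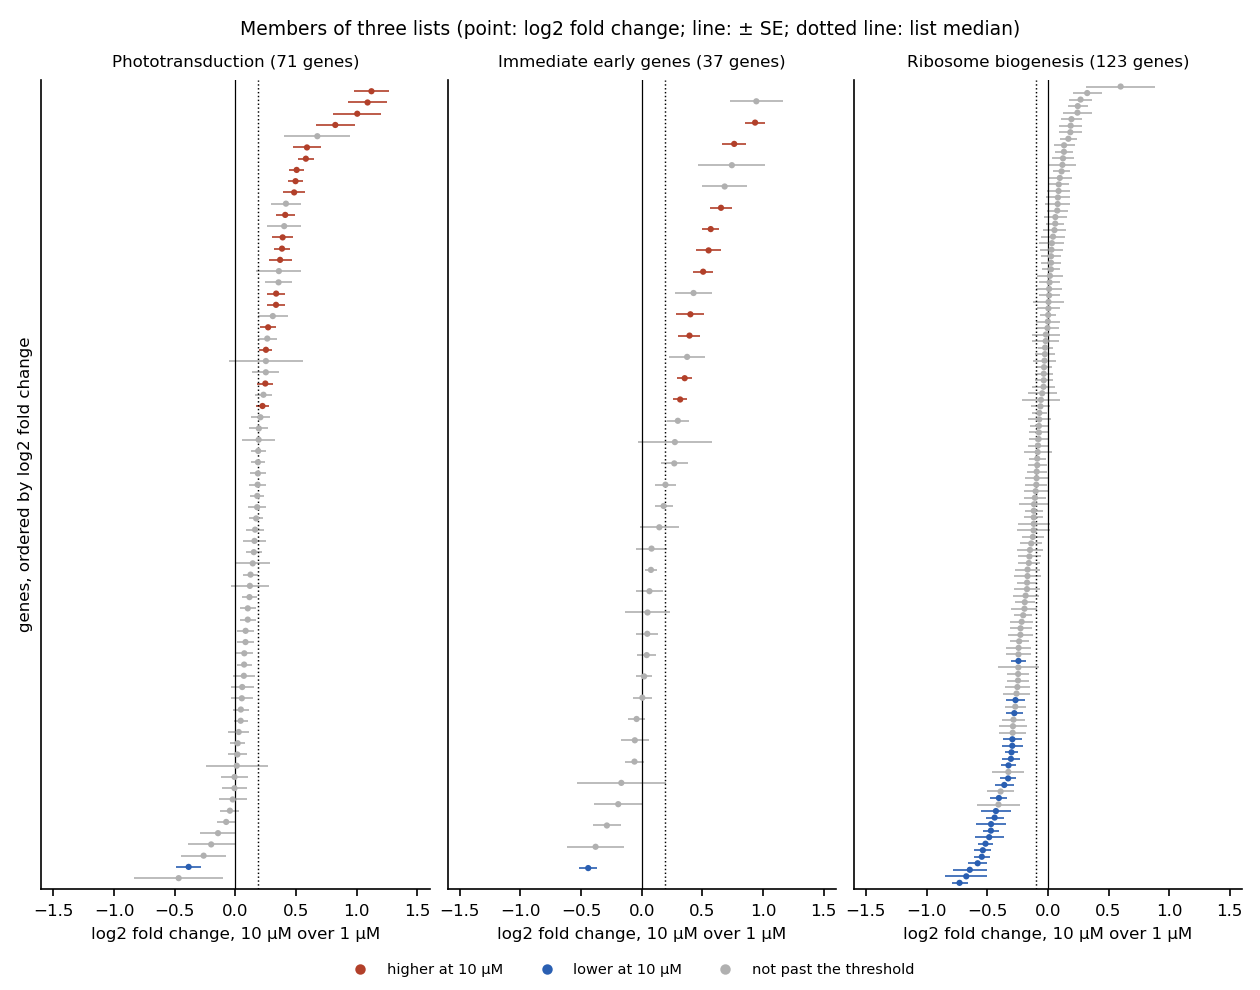
Log2 fold change of 10 µM over 1 µM (horizontal axis) with its SE for each tested member of 3 lists, ordered by fold change, in red where the gene rose, blue where it fell and grey where it did not pass the threshold, with a dotted line at the list's median. Phototransduction (71 genes) and immediate early genes (37) lean to the right, with 19 and 10 genes that rose, and ribosome biogenesis (123) leans to the left, with 23 that fell. The ribosome biogenesis list was written after values were seen, and the other lists were chosen with earlier results of these data known.

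Neuron, lens and glial genes had smaller shares of calls than the phototransduction list, a difference that was not tested. Of 57 tested neuron genes 5 rose and none fell, with a median of 0.10 log2 units, among them the intermediate filament gene INA ENSDARG00000011862 (0.49 ± 0.09, adjusted p = 0.00369) and GAD2, which makes the transmitter GABA (0.30 ± 0.06, adjusted p = 0.00968). Leaving out 1 µM replicate 2 or 10 µM replicate 1 or 2 gave 2 rises, and leaving out 1 µM replicate 3 gave 3. The summed level of the neuron list was 4360 to 4554 CPM at 10 µM and 4001 to 4175 CPM at 1 µM. Of 43 lens crystallin genes 2 passed, both rising (4.65%, beside 3.08% of all genes). Of the 43, 42 were positive and the median was 0.43 log2 units. None passed without 10 µM replicate 1, 2 or 3, 1 without 1 µM replicate 1 or 10 µM replicate 4, and 6 without 1 µM replicate 3, while DESeq2 called 5. The lens list summed to 6138 to 7878 CPM at 10 µM and 3528 to 6811 CPM at 1 µM, which overlap, and its median was -0.16 in the fit with the outside-gene share. Of 20 glial genes only OLIG2 passed (5%, beside 3.08% of all genes). It rose by 0.45 ± 0.13 log2 units (adjusted p = 0.0476), a call lost whichever library was left out (adjusted p up to 0.116).

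Immediate early genes are switched on within minutes by nerve activity, growth factors or stress. Of 37 tested, 10 rose and 1 fell, and the median change was 0.20 log2 units. The transcription factor gene egr4 (ENSDARG00000077799) had 32.5, 31.6, 32.6 and 34.2 CPM at 10 µM and 17.9, 15.3, 15.2 and 19.5 CPM at 1 µM. Its 10 µM libraries were close together and far above those at 1 µM, and it rose by 0.93 ± 0.08 log2 units (adjusted p = 9.19e-06). NPAS4 ENSDARG00000055752, a factor induced by neuronal activity, rose by 0.76 ± 0.10 log2 units (adjusted p = 0.000691), ier2a by 0.57 ± 0.07 (adjusted p = 0.000235) and BTG2, which restrains cell division, by 0.65 ± 0.09 (adjusted p = 0.000978). GADD45A ENSDARG00000104571, a stress gene of DNA damage, was the gene that fell, by 0.44 log2 units (SE 0.08, adjusted p = 0.00296). With the outside-gene share as covariate 1 member of the list rose and 1 fell. The solvent-treated larvae were near the 10 µM level of egr4, which averaged 33.2 CPM with DMSO, 20.97 at 0.1 µM, 17.0 at 1 µM and 32.7 at 10 µM.

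Several stress genes were among the largest rises. The protein of diabloa (ENSDARG00000104172) is related to DIABLO, which leaves mitochondria and unblocks caspases. The gene had 160, 213, 147 and 167 CPM at 10 µM and 57.6, 24.8, 37.9 and 41.5 CPM at 1 µM, and rose by 2.10 ± 0.25 log2 units (adjusted p = 0.00748). The stress-induced nuclear protein gene nupr1b had 62.9, 55.5, 61.8 and 59.5 CPM at 10 µM and 32.6, 24.6, 25.3 and 23.8 CPM at 1 µM, and rose by 1.18 ± 0.08 log2 units (adjusted p = 1.26e-06). HSP90AA1 (ENSDARG00000024746), a chaperone, had 84.1, 78.6, 73.3 and 63.7 CPM at 10 µM and 40.4, 29.2, 33.1 and 33.6 CPM at 1 µM, and rose by 1.14 ± 0.10 log2 units (adjusted p = 5.06e-05). None of the 3 overlapped between the groups, which the rule for naming the largest rises required. ARRDC2, which encodes an adaptor for protein ubiquitination, had 167, 242, 157 and 171 CPM at 10 µM and 99.2, 37.9, 61.4 and 63.1 CPM at 1 µM. Its rise of 1.503 ± 0.30 log2 units (adjusted p = 0.0404) was lost on leaving out any library other than 1 µM replicate 1 (adjusted p up to 0.0987).

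The heat shock list as a whole was mixed, with 4 of 36 tested genes that rose and 2 that fell, and 7 that rose without 1 µM replicate 1. None fell without 1 µM replicate 2 or 3 or 10 µM replicate 1, 2 or 4. No heat shock gene passed with the outside-gene share as covariate. Beside HSP90AA1 the genes that rose were hsp70l (1.203 ± 0.27, adjusted p = 0.0158, and 0.0648 without 10 µM replicate 1), the collagen chaperone gene SERPINH1 ENSDARG00000019949 (0.60 ± 0.13, adjusted p = 0.0128) and dnaja1 (0.53 ± 0.09, adjusted p = 0.00205). SERPINH1 ENSDARG00000075954 was at 0.002 ± 0.085 log2 units and hsp90aa1.1 at 0.22 ± 0.25, and neither was called. The heat shock genes that fell were hsf1 (-0.25 ± 0.07, adjusted p = 0.0477) and BAG3 (-0.37 ± 0.10, adjusted p = 0.0374). The cell death gene pmaip1, from a list written after values were seen, rose by 1.06 ± 0.14 log2 units (adjusted p = 0.00083), with 15.6 to 23.1 CPM at 10 µM and 7.34 to 10.7 CPM at 1 µM. Of 31 genes of the unfolded protein and amino acid stress responses 2 rose, HERPUD1 by 0.47 ± 0.08 log2 units (adjusted p = 0.00249) and DDIT3, whose call was lost without 6 of the 8 libraries. The antioxidant and NRF2 response list gave 4 rises and 1 fall of 24. The largest rises were of TXNIP ENSDARG00000070000 and TXNIP ENSDARG00000036107, by 0.86 ± 0.16 and 0.67 ± 0.16 log2 units (adjusted p = 0.0137 and 0.0471). Of the enzyme genes gpx1a rose by 0.35 ± 0.08 (adjusted p = 0.0141), and SOD1, SOD2 and CAT were not called. Nor were GCLC, GCLM, HMOX1, SRXN1, slc7a11 and TXN of the same list. SQSTM1, a carrier of cargo to autophagy, rose by 0.34 ± 0.06 (adjusted p = 0.00504). The transcription factor gene nfe2l2b fell by 0.53 log2 units (SE 0.11, adjusted p = 0.00759). The list's count of rises was 2 without 10 µM replicate 2 or 4.

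Lysosomes digest material from outside the cell and from autophagy with acid hydrolases. In a list of 95 tested genes, written after values were seen, 18 rose and 2 fell, with a median of 0.13 log2 units. These are 18.95% and 2.1% of the list beside 3.08% and 3.32% of all genes. The protease gene CTSB had 111, 114, 104 and 112 CPM at 10 µM and 70.9, 69.6, 83.0 and 78.6 CPM at 1 µM and rose by 0.53 ± 0.06 log2 units (adjusted p = 0.000136). PLA2G15, a lysosomal phospholipase, had 116, 121, 112 and 117 CPM at 10 µM and 85.2, 87.6, 89.8 and 86.6 CPM at 1 µM and rose by 0.40 ± 0.05 log2 units (adjusted p = 0.000244). In both genes the libraries of each group were tightly grouped and apart. The protease gene ctsla rose by 0.34 ± 0.06 (adjusted p = 0.00265), whereas scarb2a, whose protein brings a hydrolase to the lysosome, fell by 0.38 log2 units (SE 0.06, adjusted p = 0.00247). Leaving out 1 µM replicate 2 or 10 µM replicate 2 gave 9 rises, and leaving out 1 µM replicate 4 or 10 µM replicate 1 or 4 gave 11. No lysosome gene passed with the outside-gene share as covariate, where the list's median was 0.06 log2 units. Of 50 proteasome genes 5 rose and 1 fell, and 1 to 3 rose without 1 µM replicate 2, 3 or 4 or any 10 µM library.

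Ribosomes are assembled in the nucleolus from ribosomal RNA, ribosomal proteins and a large set of assembly factors, with small nucleolar ribonucleoproteins that modify the RNA. In a list of 123 tested assembly genes, written after values were seen, 23 fell and none rose, 18.7% of the list beside 3.32% of all genes. The median change was -0.10 log2 units. DKC1 (ENSDARG00000016484), the enzyme that converts uridine to pseudouridine in ribosomal RNA, had 36.3, 35.4, 36.1 and 36.5 CPM at 10 µM and 56.44, 55.02, 67.13 and 58.3 CPM at 1 µM. The 10 µM libraries were nearly equal and all far lower, and the gene fell by 0.73 log2 units (SE 0.07, adjusted p = 9.19e-06). The nucleolar genes nolc1, PPAN and NOP58 fell by 0.54, 0.54 and 0.51 log2 units (adjusted p = 0.000166, 0.000378 and 0.000155). The fall of DKC1 held in the fit with the outside-gene share (adjusted p = 0.00101), as did those of nolc1 (0.0386) and NOP58 (0.0425), the only 3 of the list. The count was 15 without 1 µM replicate 4 and 12 without 10 µM replicate 4. The summed level of the list overlapped between the groups, at 4600 to 5370 CPM at 10 µM and 4567 to 5420 CPM at 1 µM.

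Noncoding RNAs tied to the nucleolus and the spliceosome were among the largest falls. The gene gas5 (ENSDARG00000092337), a host of small nucleolar RNAs, had 12.6, 11.6, 11.2 and 12.4 CPM at 10 µM and 29.6, 27.1, 32.7 and 23.6 CPM at 1 µM, and fell by 1.24 log2 units (SE 0.10, adjusted p = 3.1e-06). U2 (ENSDARG00000082321), a small nuclear RNA of the spliceosome, had 7.86, 11.6, 8.55 and 11.7 CPM at 10 µM and 24.6, 32.0, 33.8 and 35.3 CPM at 1 µM, and fell by 1.70 log2 units (SE 0.14, adjusted p = 4.42e-05). 5_8S_rRNA (ENSDARG00000081218) had 2.96, 1.71, 3.09 and 2.99 CPM at 10 µM and 6.55, 9.65, 5.22 and 7.49 CPM at 1 µM, and fell by 1.43 log2 units (SE 0.21, adjusted p = 0.0011). Each of the 3 was lower in every library at 10 µM, which the rule for naming the largest falls required. Many copies of U2 and of ribosomal RNA exist, so reads may be split between copies or set aside as not uniquely aligned, and the libraries had ribosomal RNA removed. The share of reads not uniquely aligned was 38.5 ± 2.14% at 10 µM and 35.7 ± 3.89% at 1 µM (exact two-sided permutation p = 0.257). Of 40 tested SR and hnRNP genes, whose proteins steer splicing, 8 fell and none rose, in a list written after values were seen. They include SRSF5 (-0.26 ± 0.06, adjusted p = 0.0137) and hnrnpa1a (-0.34 ± 0.07, adjusted p = 0.0113), and the count was 2 or 3 without 1 µM replicate 2 or 4 or 10 µM replicate 1, 2 or 4.

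The coactivator gene pprc1 (ENSDARG00000090337), which serves the making of mitochondria, had 21.8, 20.1, 17.6 and 17.9 CPM at 10 µM and 43.2, 47.9, 61.2 and 45.9 CPM at 1 µM. It fell by 1.37 log2 units (SE 0.11, adjusted p = 1.76e-05), with every library at 10 µM well below those at 1 µM. The rule for naming the largest falls required that the groups not overlap. The call of pprc1 was kept in the fit with the outside-gene share (adjusted p = 0.00124). Of the 18 genes of its list, SIRT1 was the one that rose, by 0.25 ± 0.06 log2 units (adjusted p = 0.0318), a call lost without 4 of the 8 libraries. Among 89 nuclear genes of oxidative phosphorylation 84 were positive, with a median of 0.11 log2 units. In 26 of them the unadjusted p was under 0.05 with a positive change and in none with a negative one. Over all 20288 genes tested, 4539 had an unadjusted p under 0.05 in either direction. After adjustment 3 of the 89 rose (3.37%, near the 3.08% of all genes), led by cox6b1 (0.40 ± 0.08, adjusted p = 0.00876). The count was 9 without 1 µM replicate 3 and 1 without 1 µM replicate 2 or 4 or 10 µM replicate 1, 2 or 3. All 13 mitochondrially encoded protein genes were negative with a median of -0.11 log2 units, which was 0.25 in the fit with the outside-gene share. None of them passed in edgeR or DESeq2, and none had an unadjusted p under 0.05. Of 83 cytosolic ribosomal protein genes 75 were positive with a median of 0.09 log2 units, which was -0.05 with the outside-gene share. None passed in edgeR, where 14 had an unadjusted p under 0.05 and a positive change and 1 a negative one, and 2 rose in DESeq2.

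Lists of genes that handle foreign compounds held a few calls each. CYP1A1, the classical target of the aryl hydrocarbon receptor, had 42.4, 33.3, 34.7 and 29.6 CPM at 10 µM and 33.6, 25.4, 32.7 and 37.2 CPM at 1 µM. The ranges overlapped, with a difference of 0.11 ± 0.13 log2 units (adjusted p = 0.667). Of 14 genes of that receptor's battery 2 rose (14.3%, beside 3.08% of all genes), NQO1, a quinone reductase, by 0.55 ± 0.08 (adjusted p = 0.000659), and FOXQ1 by 1.02 ± 0.21 log2 units (adjusted p = 0.023, lost without 1 µM replicate 1 or 3 or 10 µM replicate 4, up to 0.0639). Of 40 genes of cytochrome P450 families 2 and 3 and the receptor PXR, 2 rose and 2 fell (5% each way, beside 3.08% and 3.32% of all genes), and none rose without 1 µM replicate 4 or 10 µM replicate 2. The fallen were CYP2R1 and cyp2p9 (-0.81 ± 0.13, adjusted p = 0.0042). Its relative cyp2p7 rose by 0.87 ± 0.19 (adjusted p = 0.0278), a call lost without 4 of the 8 libraries. Of 53 conjugation enzymes 1 rose and 4 fell (1.89% and 7.55%), and 1 or 2 fell without 10 µM replicate 1, 2 or 3. GSTM3 ENSDARG00000029473, a glutathione transferase, had 0.605, 0.513, 0.570 and 1.23 CPM at 10 µM and 1.76, 2.95, 4.44 and 3.52 CPM at 1 µM, so it was low throughout and lower in every library at 10 µM. It fell by 2.16 log2 units (SE 0.31, adjusted p = 0.000727), and the rule for naming the largest falls required the separation.

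The series title names circadian rhythm, and most core clock genes did not pass the threshold between these doses. The clock turns on CLOCK and BMAL1, which switch on their own repressors of the PER, CRY and REV-ERB families. NR1D1, of the REV-ERB family, had 110, 119, 104 and 114 CPM at 10 µM and 109, 103, 112 and 112 CPM at 1 µM. The libraries of the groups were interleaved, and the difference was 0.03 ± 0.06 log2 units (adjusted p = 0.817). PER1 ENSDARG00000012499 and PER1 ENSDARG00000056885 differed by -0.09 ± 0.06 and -0.10 ± 0.07 log2 units, and CRY1 ENSDARG00000011583 and CRY1 ENSDARG00000045768 by 0.01 ± 0.07 and 0.09 ± 0.06. CLOCK ENSDARG00000003631, CLOCK ENSDARG00000011703, BMAL1 ENSDARG00000006791 and BMAL1 ENSDARG00000035732 differed by -0.02, -0.19, -0.04 and -0.07 log2 units, with no call. CLOCK ENSDARG00000011703 had an adjusted p of 0.0726 and was lower in every library at 10 µM. All 6 clock activators tested were negative. These misses do not show that the levels were the same.

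Within the 21 clock repressors tested, 3 rose and 2 fell. The gene nfil3-6 (ENSDARG00000087188), a repressor of the genes that carry the rhythm outward, had 315, 318, 260 and 304 CPM at 10 µM and 179, 148, 209 and 142 CPM at 1 µM. All its libraries at 10 µM were higher, and it rose by 0.81 ± 0.12 log2 units (adjusted p = 0.00573). NFIL3 and BHLHE40 rose by 0.39 ± 0.08 and 0.29 ± 0.07 log2 units (adjusted p = 0.0115 and 0.0169, and up to 0.0647 for BHLHE40 with 1 library left out). PER2 had 185, 183, 177 and 175 CPM at 10 µM and 202, 212, 206 and 207 CPM at 1 µM, and fell by 0.21 log2 units (SE 0.05, adjusted p = 0.0233). PER3 fell by 0.20 log2 units (SE 0.06, adjusted p = 0.0422). The PER2 call was lost on leaving out any library other than 1 µM replicates 1 and 3, and the PER3 call on leaving out any other than 1 µM replicate 1 (adjusted p up to 0.0768 and 0.115). The number of rising repressors was 6 without 1 µM replicate 1. Of 12 clock output and ROR genes 2 fell, dbpa (-0.22 ± 0.05, adjusted p = 0.0224) and rorcb (-0.22 ± 0.06, adjusted p = 0.0434), and of 6 clock activators 1 fell, bmal2 (-0.37 ± 0.10, adjusted p = 0.0326). Those 3 calls were lost without 4, 7 and 6 of the 8 libraries. None of 8 light-response genes passed in edgeR or DESeq2, and none had an unadjusted p under 0.05.

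Collagens form the fibres and sheets between cells. Of 37 tested collagen genes 7 fell (18.9%, beside 3.32% of all genes) and none rose. Of the 37, 35 were negative, with a median of -0.19 log2 units. The anchoring fibril gene col7a1 had 22.4, 21.3, 29.2 and 27.9 CPM at 10 µM and 36.5, 51.8, 37.0 and 43.1 CPM at 1 µM. The groups stood apart, and the gene fell by 0.76 log2 units (SE 0.14, adjusted p = 0.0125). Also lower were col27a1b (-0.51 ± 0.10, adjusted p = 0.00524) and col5a3b (-0.49 ± 0.10, adjusted p = 0.0124). The count was 12 without 1 µM replicate 1, 4 without 1 µM replicate 2 or 4, and 3 without 10 µM replicate 1 or 2. No collagen gene passed with the outside-gene share as covariate, where the list's median was -0.15 log2 units. Of 35 cartilage and bone genes 3 rose, among them the cartilage matrix gene MATN3 ENSDARG00000069265 by 0.56 ± 0.11 (adjusted p = 0.0064), and COL10A1 ENSDARG00000054753, of hypertrophic cartilage, fell by 0.22 log2 units (SE 0.06, adjusted p = 0.0431). The COL10A1 call was lost without 7 of the 8 libraries, and 1 gene rose without 1 µM replicate 2 or 10 µM replicate 1, 2 or 4. The namesakes MATN3 ENSDARG00000069245 and COL10A1 ENSDARG00000101535 were not called, at 0.06 ± 0.17 and 0.34 ± 0.33 log2 units. Of 40 epidermal genes 2 rose and 2 fell (5% each way, beside 3.08% and 3.32% of all genes), with the plakin gene evpla at -0.32 ± 0.06 (adjusted p = 0.00764). Only the evpla call of these 4 held whichever library was left out. The epidermal rises numbered 4 without 1 µM replicate 1, 1 without 10 µM replicate 1 or 3 and 0 without any other library, and 1 gene fell without 1 µM replicate 2 or 4 or 10 µM replicate 1, 2 or 4.

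Some glycolysis genes rose. Of 35 tested, 6 rose and none fell, and 30 were positive with a median of 0.14 log2 units. ALDOA ENSDARG00000011665 had 540, 495, 613 and 520 CPM at 10 µM and 373, 371, 417 and 367 CPM at 1 µM, and rose by 0.49 ± 0.07 log2 units (adjusted p = 0.000691). PFKM ENSDARG00000014179, which sets the pace of the pathway in muscle, rose by 0.40 ± 0.08 (adjusted p = 0.00677) and ENO3 by 0.32 ± 0.07 (adjusted p = 0.00855). The count was 3 without 1 µM replicate 2 or 10 µM replicate 1 or 4. Of 34 hypoxia genes 7 rose and 1 fell (20.6% and 2.94%, beside 3.08% and 3.32% of all genes). The rises include the glucose carrier SLC2A1 ENSDARG00000001437 (0.40 ± 0.09, adjusted p = 0.0146) and the IGFBP1 pair. SLC2A1 ENSDARG00000007412 was at -0.15 ± 0.07 and was not called. The gene that fell was the vessel growth factor VEGFA ENSDARG00000034700 (-0.32 ± 0.08, adjusted p = 0.0287). The calls of SLC2A1 ENSDARG00000001437 and VEGFA ENSDARG00000034700 were lost without 3 and 5 of the 8 libraries. No hypoxia gene rose without 1 µM replicate 2, and 1 to 3 rose without 1 µM replicate 3 or 4 or 10 µM replicate 1, 2 or 4. Neither the hypoxia list nor the glycolysis list held a call with the outside-gene share as covariate.

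Lipid lists held 1 or 2 calls or none. Of 27 cholesterol genes 1 rose and 1 fell (3.70% each way, near the 3.08% and 3.32% of all genes). Of the 27, 21 were negative with a median of -0.14 log2 units, and 5 had an unadjusted p under 0.05 and a negative change. The gene insig1, whose protein holds back cholesterol synthesis, had 80.4, 79.5, 64.4 and 77.5 CPM at 10 µM and 48.2, 32.9, 37.0 and 35.8 CPM at 1 µM and rose by 0.98 ± 0.11 log2 units (adjusted p = 0.000586). The receptor gene ldlrb fell by 0.60 log2 units (SE 0.14, adjusted p = 0.0414) with overlapping groups, and its call was lost on leaving out any library other than 1 µM replicate 1. The count of falling cholesterol genes was 5 without that library and 0 without any other. Of 18 apolipoprotein genes apoa4a fell by 1.06 log2 units (SE 0.15, adjusted p = 0.000576), with 2.31 to 3.43 CPM at 10 µM and 5.54 to 6.30 CPM at 1 µM. Of 32 genes of fatty acid oxidation 2 rose, a count that was 0 without 10 µM replicate 1 and 1 without 1 µM replicate 2 or 4 or 10 µM replicate 2 or 4. None of 25 genes of fatty acid synthesis passed in edgeR or DESeq2, where 6 had an unadjusted p under 0.05 in edgeR.

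Blood and muscle gave a few calls each. Of 31 erythroid genes 3 rose and none fell, all of them globin genes. The embryonic globin gene hbae3 had 223, 220, 185 and 190 CPM at 10 µM and 122, 131, 140 and 107 CPM at 1 µM, and rose by 0.70 ± 0.09 log2 units (adjusted p = 0.00038). Its relatives hbae1.3 and hbae1.2 rose by 0.81 ± 0.11 and 0.98 ± 0.17 (adjusted p = 0.000871 and 0.00351). Globin genes of the cluster are near copies, so reads may be shared between them, and the summed erythroid list overlapped, at 1395 to 1492 CPM at 10 µM and 1263 to 1453 CPM at 1 µM. Of 56 muscle genes 2 rose (3.57%, near the 3.08% of all genes), and 4 rose without 1 µM replicate 1. The 2 were CKMT2 ENSDARG00000039929, by 0.32 ± 0.06 (adjusted p = 0.00641), and pvalb4, by 0.25 ± 0.06 log2 units (adjusted p = 0.0219, lost without 4 of the 8 libraries). Of 10 heart muscle genes myh7ba fell by 0.33 log2 units (SE 0.07, adjusted p = 0.0152, and 0.0541 without 10 µM replicate 4). Of 30 intestinal genes 1 fell (3.33%, near the 3.32% of all genes). It was SLC15A1 ENSDARG00000100315, which fell by 0.33 log2 units (SE 0.08, adjusted p = 0.0214, lost without 4 of the 8 libraries). SLC15A1 ENSDARG00000044528 was at 0.14 ± 0.06 log2 units and was not called (adjusted p = 0.194).

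Immune and excretory lists were mixed. Of 38 leukocyte and inflammation genes 4 rose and 2 fell, and 1 or 2 rose without 1 µM replicate 3 or 10 µM replicate 1, 2 or 4, while none or 1 fell without each library in turn. The prostaglandin synthase gene PTGS2 ENSDARG00000004539 had 30.2, 35.9, 31.4 and 33.2 CPM at 10 µM and 23.7, 14.5, 17.6 and 23.6 CPM at 1 µM, and rose by 0.72 ± 0.13 log2 units (adjusted p = 0.0113). Its namesake PTGS2 ENSDARG00000010276, named after its values were seen, fell by 0.55 log2 units (SE 0.15, adjusted p = 0.0456), with overlapping groups and a call lost without 6 of the 8 libraries. Of 37 complement and antimicrobial genes 1 rose and 1 fell (2.70% each, beside 3.08% and 3.32% of all genes). The call of mbl2, the gene that fell, was lost without 5 of the 8 libraries. Of 46 ionocyte and kidney genes 5 rose and 1 fell, the rises being 2 genes named ATP6V1A, 2 named ATP6V1B2 and ATP6V1D, all subunits of the proton pump, and 0 to 2 rose without 1 µM replicate 2 or 4 or any 10 µM library.

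The lists of DNA replication, mitosis, exocrine pancreas and liver plasma proteins held no call in the reported edgeR fit or, but for 1 liver gene that rose, in DESeq2. Among 48 DNA replication genes 41 were negative with a median of -0.18 log2 units, 5 had an unadjusted p under 0.05 and a negative change and 1 a positive one. Among 30 mitosis genes 25 were negative with a median of -0.14, and 2 had an unadjusted p under 0.05. Their summed levels overlapped between the doses, at 662.5 to 1021 and 340.7 to 550.2 CPM at 10 µM and 842.7 to 1038 and 415.2 to 526.7 CPM at 1 µM. With the outside-gene share as covariate the medians of DNA replication and mitosis were 0.03 and 0.09 log2 units. The 26 exocrine pancreas genes had a median of 0.30 and summed to 10767 to 13071 CPM at 10 µM and 5912 to 12201 CPM at 1 µM. That median was -0.35 with the outside-gene share as covariate, where 1 pancreas gene fell, and 0.04 without 1 µM replicates 1 and 2. Replicate 2 at 1 µM held the low pancreas values, with CELA1 ENSDARG00000017314 at 494 CPM there, 742 to 976 CPM in the other 1 µM libraries and 914 to 1075 CPM at 10 µM. The pancreas list had 1 unadjusted p under 0.05, and the 36 liver plasma protein genes had 3. The unadjusted counts of these lists stand beside 4539 of the 20288 genes tested. The summed markers of each tissue list were above 0 in all 8 libraries. Only genes that passed the filter on low counts were summed, so this says nothing about differences between the tissues.

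**Figure D5:**
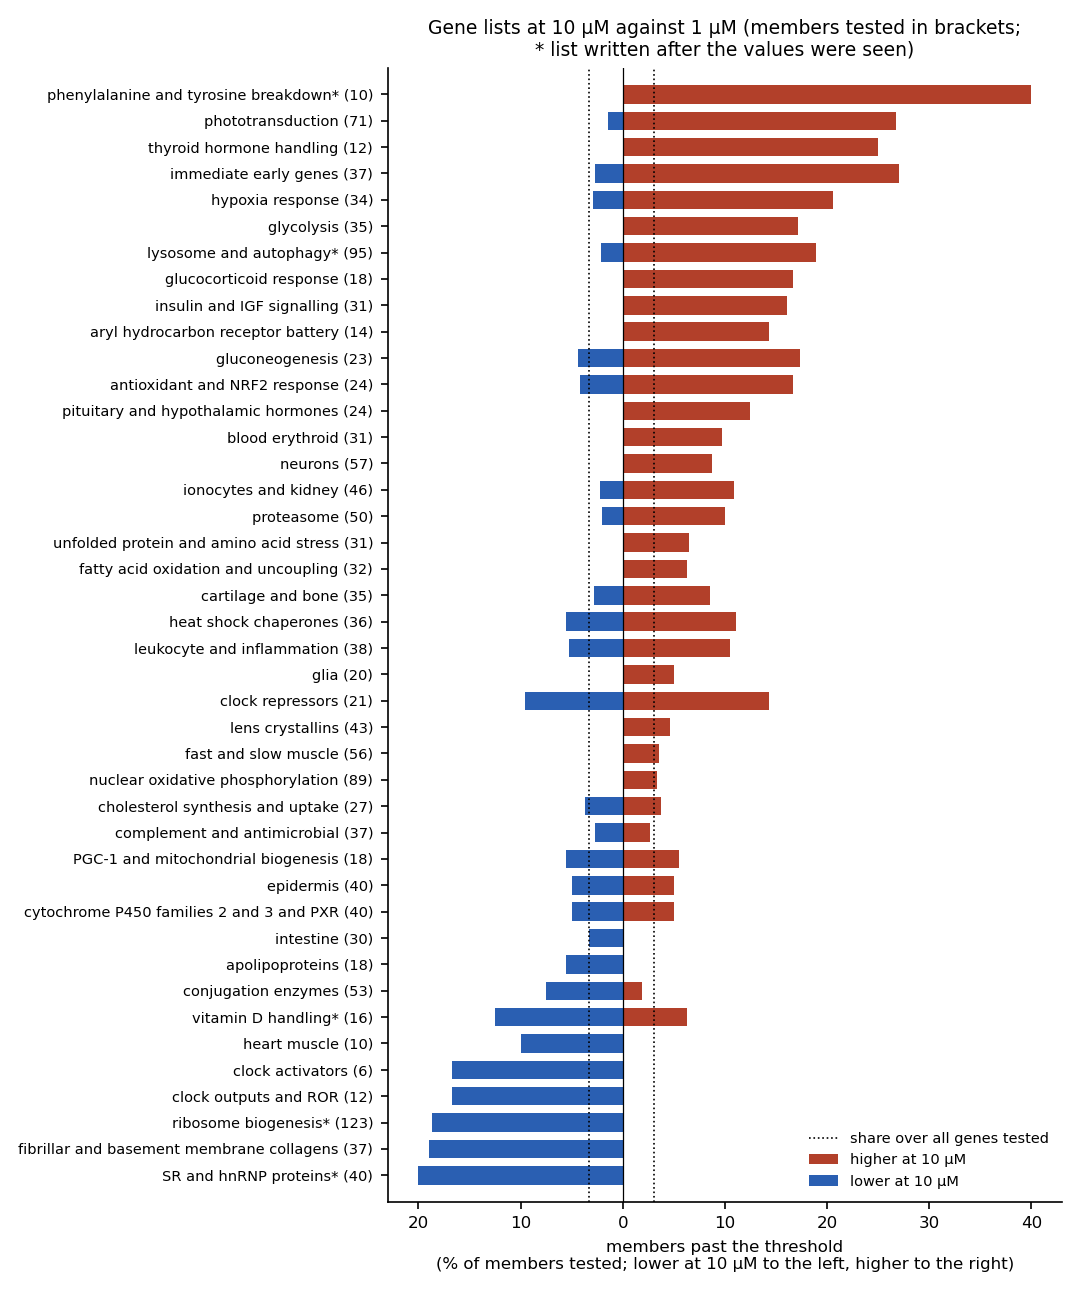
Share of the tested members of each list (vertical axis, number tested in brackets) that passed the threshold, higher at 10 µM to the right and lower to the left, in percent. Lists without a call and 1 other are left out, dotted lines mark the shares over all 20288 genes (3.08% and 3.32%), and phototransduction and immediate early genes extend far to the right of the line while ribosome biogenesis and collagens extend to the left. Ribosome biogenesis is 1 of 6 lists written after values were seen, so its place beyond the line was partly set by that choice. The other lists were chosen with earlier results of these data known, so their places may also partly reflect the choice.

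The place of the 2 doses in the whole series differed between rising and falling genes, as a description without a test. Among the 625 genes that were higher at 10 µM than at 1 µM, the mean of the DMSO larvae was at or beyond the 1 µM mean for 250, between the doses for 320 and at or beyond the 10 µM mean for 55. It was nearer to the 10 µM mean for 29.1% of them. Among the 673 genes that were lower at 10 µM, the DMSO mean was at or beyond the 1 µM mean for 116, between the doses for 387 and at or beyond the 10 µM mean for 170, and nearer to the 10 µM mean for 53.8%. The same share was 45.8% over all genes tested. Larvae at 0.1 µM were nearer to 10 µM for 9.76% of the rising genes, 16.5% of the falling ones and 33.3% of all.

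Single genes show both kinds of course. TAT averaged 73.05 CPM with DMSO, 83.5 at 0.1 µM, 107 at 1 µM and 218 at 10 µM, and CYP24A1 averaged 42.4, 58.1, 56.9 and 150.2 CPM in the same order, so both were highest at the top dose and lowest with DMSO. CYP2R1 averaged 7.36, 15.3, 18.6 and 5.55 CPM from DMSO to 10 µM, and gas5 17.8, 27.5, 28.2 and 11.9 CPM, with the 2 outer groups low. The transcript of nupr1b was 47.1, 24.4, 26.6 and 59.9 CPM in that order, with the 2 outer groups high. U2 stood at 17.2, 24.4, 31.4 and 9.90 CPM, and DKC1 at 38.6, 52.7, 59.2 and 36.1 CPM. NR1D1 averaged 31.5 CPM with DMSO, 83.7 at 0.1 µM, 109 at 1 µM and 112 at 10 µM, so its 2 upper doses were close while the solvent control was lower.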

How the data were processed

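The authors deposited raw read counts per Ensembl gene for each of the 16 libraries, with no normalization, per the file headers and values. Per the labels' protocols, total RNA was made into stranded libraries with ribosomal RNA removed, and per the submitters' processing notes Trimmomatic, HTSeq, edgeR and build GRCz10 were used. Which aligner and which annotation were used is not given in the sources used here. No coordinates or sequences are printed.

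The 5 summary entries of the counting program were kept out of library sizes and tests; those outside genes made up 31.7% to 40.4% of uniquely aligned reads in the 8 libraries. Genes with at least 1 CPM in 4 of the 8 libraries were tested with edgeR 4.0.16 in R 4.3.3 (TMM factors, robust quasi-likelihood F-test, group only, Benjamini-Hochberg over all 20288 genes, threshold 0.05). The common biological coefficient of variation was 0.0766, and 4539 genes had an unadjusted p under 0.05. SE is the log2 fold change over the square root of F. Printed CPM and the overlap of groups use TMM factors over all 16 libraries, so that every group is on 1 scale. A difference of the library measures was tested by exact two-sided permutation (70 splits). On simulated counts of these 8 libraries the test called 19, 37, 47 and 50 of 50 genes each with true folds of 1.3, 1.5, 2 and 3, and 15 unchanged genes. No 2 replicates agreed within sampling noise (chi-square per gene of 3.21 or more).

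Symbols came from a table of Ensembl names, which covered 26269 identifiers and 19060 of the tested genes; many are in human form, and the identifier is given where a symbol is shared. The comparison, its genes and the 45 lists were chosen with earlier results of these data known, and 6 more lists were written after values were seen. Counts of called members are read against the share over all genes, and no list was tested as a set. Named genes are the 15 largest rises and 15 largest falls (at least 1 CPM in the higher group, groups not overlapping, a symbol that is no clone name), the members with the smallest p in every list (at most 4), and some clock and metabolic genes whatever their p; not all are printed, and a few genes and 1 list are not reported here. Alternatives were DESeq2 size factors, other filters on low counts, DESeq2 1.42.0, a fit of all 16 libraries, the replicate number as a block, the outside-gene share as covariate, each library left out in turn and, chosen after seeing the data, 1 µM replicates 1 and 2 left out together.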

Additional observations from a re-analysis of the deposited data

Results flagged for a closer look

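In 13 of 244 groups of 4 libraries, 1 library lay far from the other 3 by the gap relative to the whole range; chance alone marks about 1 in 20 such groups. At 10 µM, replicate 2 stood above the rest for ARRDC2 (242.5 CPM, others 157.1 to 170.9), IRS2 ENSDARG00000037099 (179.8 CPM, others 143.0 to 147.0) and pmaip1 (23.09 CPM, others 15.55 to 16.78), and below them for 5_8S_rRNA (1.71 CPM, others 2.956 to 3.094). Replicate 3 at 10 µM was high for PFKM ENSDARG00000014179 (256.3 CPM, others 215.4 to 222.3). Replicate 4 at 10 µM was high for HBE1 ENSDARG00000087390 (21.07 CPM, others 10.83 to 12.09) and GSTM3 ENSDARG00000029473 (1.226 CPM, others 0.5131 to 0.6047).

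At 1 µM, replicate 1, the shallowest library, was high for nupr1b (32.63 CPM, others 23.78 to 25.26) and low for ldlrb (24.94 CPM, others 40.32 to 43.06). Replicate 2 was high for col27a1b (23.52 CPM, others 19.34 to 19.78) and low for CRY1 ENSDARG00000045768 (196.6 CPM, others 207.4 to 209.5). Replicate 3 was high for ALDOA ENSDARG00000011665 (416.7 CPM, others 367.3 to 372.8) and PPAN (30.41 CPM, others 27.21 to 27.68).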

How the results depend on the processing

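DESeq2 size factors, filterByExpr, no filter, DESeq2 and the fit of all 16 libraries called 1123 to 1371 genes, all within 1.5 times the reported 1298, and kept the sign of all 1298. With the outside-gene share as covariate 47 were called (12 higher, 35 lower), and 1289 of the 1298 kept their sign. Same-numbered libraries correlated by -0.0443, -0.167, -0.0657 and 0.0244, and none matched its own number best, so no pairing by number was seen. Whether a replicate number marks a shared clutch is not stated in the labels. With the replicate number as a block 597 genes passed (295 higher, 302 lower). Leaving out 1 library gave 599 to 1683 calls (287 to 838 higher, 312 to 845 lower), and all 1298 signs were kept. The share of reads outside genes differed by -5.07 percentage points and by -4.045 to -5.804 with 1 library left out, with exact p = 0.0571 without 10 µM replicate 1, 2 or 4. It was -3.007 (exact p = 0.0667) without 1 µM replicates 1 and 2, where 918 genes passed.

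Among the named genes, those that turned round were not called, but for PCK1, and the cause was not tested. With the share covariate CLOCK ENSDARG00000003631 was at 0.1043, PCK1 at -0.01212, FKBP5 at -0.06415, NR1D1 at -0.0964, KLF9 at -0.02195, VDR ENSDARG00000070721 at -0.1552 and CYP1A1 at -0.2075 log2 units. Without 1 µM replicates 1 and 2 CLOCK ENSDARG00000003631 was at 0.02293, NR1D1 at -0.004876 and CYP1A1 at -0.001843. With 1 library left out CLOCK ENSDARG00000003631 ranged from -0.05007 to 0.02073, CRY1 ENSDARG00000011583 from -0.02209 to 0.08267, FKBP5 from -0.0366 to 0.1143 and NR1D1 from -0.00178 to 0.06185. Some 1.3-fold changes may have been missed. The simulation recovered 19 of 50 of that size, but it altered far fewer genes than were called here. Its adjusted threshold was therefore stricter, and its rate does not measure what the reported fit misses.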
